A study of Rattus norvegicus with 8 samples.

Results

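Desmosome and cadherin adhesion genes were examined in primary rat nucleus pulposus (NP) cells, the cells inside the intervertebral disc, following knockdown of Sirt6, which encodes a nuclear deacetylase of histones. The 10 genes were chosen by name: the desmosomal cadherins Dsg2 and Dsg3, the desmosomal plaque genes Dsp, Pkp2 and Jup, the cadherins Cdh2, Cdh11, Cdh13 and Cdh20, and Ctnnb1. Of these, 9 had a row in the deposited gene table, and all 9 also passed the filter on low counts used here, out of 13250 genes tested. Pkp2, which encodes a plaque protein of the armadillo family, had no row under its name in that table, which holds only rows with more than 80 reads over the 8 libraries, and it is treated as below that count filter.

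Cells came from adult Sprague Dawley rats and received lentiviral particles with either a control ShRNA (Sirt6-Ctrl, libraries S1 to S4) or 3 ShSirt6 clones mixed (Sirt6-KD, libraries S5 to S8), so that both groups were exposed to virus. Cells of either group were grown in DMEM with serum, and the medium after transduction held puromycin, per the study's methods. The series describes 4 rats with a control for each knockdown, but the labels do not say which Sirt6-KD library shares a rat with which Sirt6-Ctrl library, and no pairing was used. RNA of whole cultures was sequenced, so fewer cells with a transcript and less transcript per cell cannot be told apart.

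Desmosomes are spot-like junctions in which desmogleins and desmocollins join neighbouring cells, while plakoglobin (Jup), plakophilins and desmoplakin (Dsp) tie them to intermediate filaments. Classical cadherins such as N-cadherin (Cdh2) bind β-catenin (Ctnnb1) or plakoglobin with their tails, and α-catenin links the complex to actin. β-catenin also acts in the nucleus as the co-activator of Wnt signaling, and N-cadherin is a known marker of NP cells, which lie in clusters in the young disc.

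The libraries held 31994838 to 40124813 counts, and 3 reads corresponded to 0.0727 to 0.0928 CPM (reads per 1e6 reads, scaled here by the trimmed mean of M-values, TMM). Synthetic ERCC spike-ins took 6.27% and 9.8% of the counts in S1 and S2, 3.08% and 2.97% in S3 and S4, and 2.15% to 2.47% in Sirt6-KD. S1 and S2 thus stood apart, and counts of calls are also given without them. Sirt6 itself read 47.6 to 56.4 CPM in S1 to S4 and 19.2 to 21.8 CPM in S5 to S8 (log2 fold change -1.35 with a standard error of 0.13, adjusted p = 0.000713, by edgeR's quasi-likelihood test). Of 17 markers of NP cells 11 had a row. They summed to 456 to 720 CPM in S1 to S4 and 823 to 870 CPM in S5 to S8. Hif1a, Basp1, Ncam1 and Cdh2, itself one of the members, had the highest mean levels of the 11 in both groups. Log2 fold changes were positive for 6 of the 11 and negative for 5 (Krt8, Car3, Cd24, Acan and Nog). Ncam1 was called higher (log2 fold change 1.29), and Car3 (-2.70) and Krt8 (-1.32) were called lower. Krt18, Krt19, Tbxt, Col2a1 and Shh had no row under these names.

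**Figure D1:**
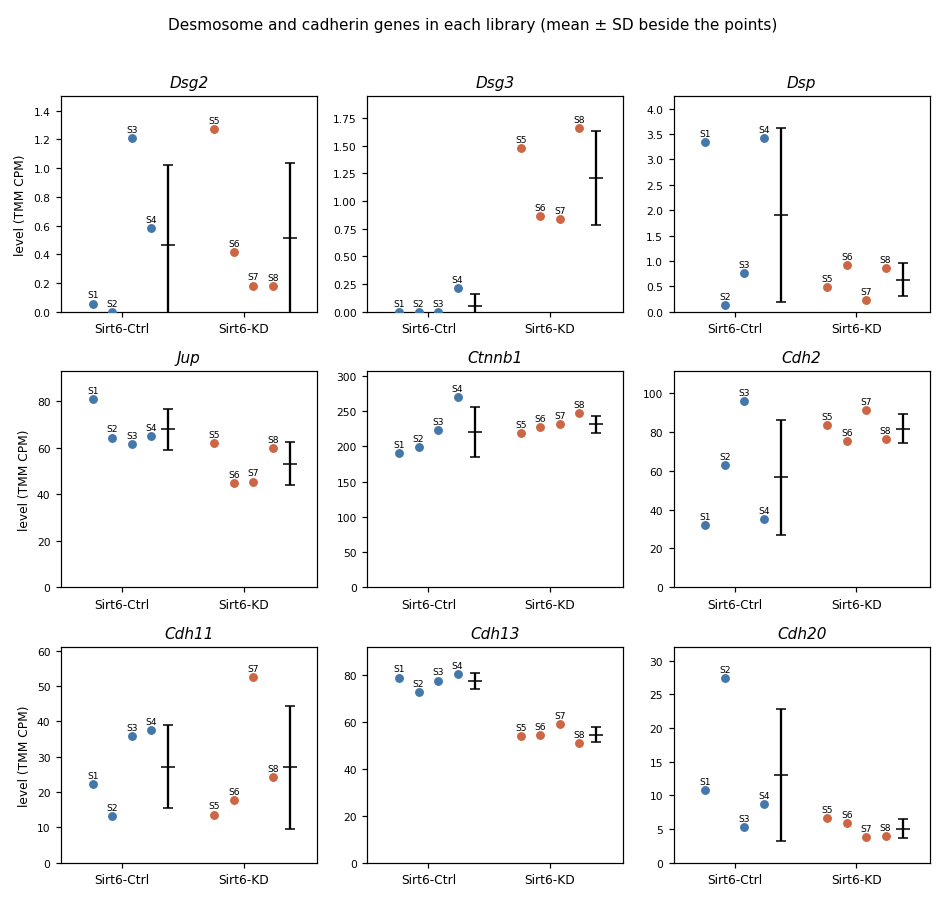
Level of each of the 9 genes in each library, in TMM-normalized CPM on a linear axis that starts at 0 and differs between panels; points are libraries, beside the mean and SD of 4 libraries (bars that reach below 0 end at the axis). The groups are apart for Dsg3 and Cdh13 and overlap for the other 7 genes.

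Of the 9 genes tested, Dsg3 alone was called different between the groups, meaning more than 1.5-fold apart with an adjusted p under 0.05, and it was higher in Sirt6-KD. Among all genes tested 18.7% were called in either direction, 8.02% higher and 10.7% lower. The groups did not overlap for 2 of the 9 genes, Dsg3 and Cdh13, against 30.4% of all genes (14.8% with Sirt6-KD above and 15.6% with Sirt6-KD below). The 9 genes had a median log2 fold change of -0.012, beside -0.016 for everything tested. Of the 9 genes, 4 had positive and 5 negative log2 fold changes. Without S1 and S2, none of the 9 genes was called by edgeR's quasi-likelihood test, although 2 had an unadjusted p below 0.05, and the share called among all genes fell from 18.7% to 10.7%, whereas DESeq2 on all libraries called Dsg3 higher and Cdh20 lower.

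Dsg3, which encodes the desmoglein typical of the deep layers of stratified epithelia and the autoantigen of pemphigus vulgaris, was close to silent in Sirt6-Ctrl. It had 0 reads in S1, S2 and S3 and 9 reads in S4, against 51, 29, 32 and 56 reads in S5, S6, S7 and S8. A count of 0 allowed up to 3 reads, or 0.0862 to 0.0928 CPM in those 3 libraries (reads are not unique molecules, so this covers counting error only). Every Sirt6-KD library lay above every Sirt6-Ctrl library, and the mean CPM was 0.0545 ± 0.109 without and 1.21 ± 0.42 with the knockdown (SD, n = 4 per group). The fitted log2 fold change was 4.31 (standard error 1.34, 95% interval 1.34 to 7.29, adjusted p = 0.0433, edgeR's quasi-likelihood test), a size that depends on how the 0 counts are treated. Dsg3 passed the filter only through the group in which it was higher, and its call was lost under 13 of 19 alternatives, with adjusted p-values from 0.00376 (DESeq2) to 0.143 (glmTreat against a fold change of 1.5).

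The other desmoglein measured, Dsg2, is the most widespread form and is found in simple epithelia and heart. Its gene lies next to Dsg3 on chromosome 18, with 0 annotated genes between them in RefSeq. Dsg2 had 2, 0, 41 and 24 reads in S1 to S4 and 44, 14, 7 and 6 reads in S5 to S8. Both groups spanned nearly the same range, with S3 and S5 at the top. The log2 fold change of 0.15 had a 95% interval from -2.71 to 3.01 (adjusted p = 0.95, edgeR's quasi-likelihood test). With this spread between libraries, a difference of several fold in either direction was not detectable. Whether Dsg2 and Dsg3 differ in response was not tested.

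Dsp, which encodes desmoplakin, the link from the desmosomal plaque to intermediate filaments, varied more within Sirt6-Ctrl (SD 1.71 CPM) than within Sirt6-KD (SD 0.324 CPM). It had 116, 4, 26 and 141 reads in S1 to S4 and 17, 31, 9 and 29 reads in S5 to S8. S1 and S4 were above all Sirt6-KD libraries, while S2 was below all of them. For Dsp the log2 fold change was -1.60 (standard error 0.96, 95% interval -3.72 to 0.52, adjusted p = 0.253, edgeR's quasi-likelihood test).

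Jup, which encodes plakoglobin, shared by desmosomes and adherens junctions, was at 81.2, 64.5, 61.6 and 65.2 CPM in S1 to S4 and at 62.2, 45.1, 45.5 and 59.9 CPM in S5 to S8. Only S5 reached into the range of Sirt6-Ctrl. The means were 68.1 ± 8.87 and 53.2 ± 9.15 CPM (SD, n = 4 per group), and the log2 fold change of -0.36 (95% interval -0.71 to -0.003) did not pass adjustment (adjusted p = 0.133, edgeR's quasi-likelihood test). Its interval was far narrower than those of Dsg2 and Dsp.

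The promoter table of RefSeq held 6 of the 10 genes, on the GRCr8 assembly, while the reads were counted on Rnor_6.0. The 250 bases before the annotated start of the 4 desmosomal genes among them are shown because the repressors Snai1 and Zeb2, described further on, are known to bind the E-box CACCTG. The capitals mark this motif on either strand, which on the printed strand reads CAGGTG. The window of Dsg2 is chr18:12121037-12121286 on the plus strand, that of Dsg3 chr18:12074071-12074320 on the plus strand, that of Dsp chr17:26877122-26877371 on the minus strand and that of Jup chr10:85827430-85827679 on the minus strand.
Dsg2: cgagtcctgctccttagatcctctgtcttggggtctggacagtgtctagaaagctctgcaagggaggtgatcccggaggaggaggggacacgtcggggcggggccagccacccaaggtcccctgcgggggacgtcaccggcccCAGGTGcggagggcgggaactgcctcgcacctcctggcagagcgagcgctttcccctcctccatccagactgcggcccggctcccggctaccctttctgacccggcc
Dsg3: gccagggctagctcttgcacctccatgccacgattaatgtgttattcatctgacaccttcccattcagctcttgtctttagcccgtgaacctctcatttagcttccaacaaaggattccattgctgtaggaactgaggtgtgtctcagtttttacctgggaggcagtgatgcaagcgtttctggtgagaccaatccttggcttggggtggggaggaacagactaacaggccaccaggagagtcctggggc
Dsp: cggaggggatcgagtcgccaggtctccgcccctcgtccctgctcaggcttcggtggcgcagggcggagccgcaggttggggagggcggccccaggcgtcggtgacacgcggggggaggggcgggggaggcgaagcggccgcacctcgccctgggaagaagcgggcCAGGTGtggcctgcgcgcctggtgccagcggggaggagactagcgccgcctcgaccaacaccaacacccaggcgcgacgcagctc
Jup: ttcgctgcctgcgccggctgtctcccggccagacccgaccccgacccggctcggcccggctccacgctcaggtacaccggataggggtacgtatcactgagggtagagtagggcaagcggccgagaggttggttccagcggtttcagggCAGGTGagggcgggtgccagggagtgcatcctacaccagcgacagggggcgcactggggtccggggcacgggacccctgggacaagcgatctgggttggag

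The E-box stood once in each of the windows of Dsg2, Dsp and Jup, at positions -107, -85 and -101 relative to the gene start, and not in those of Dsg3, Cdh20 and Ctnnb1. Of 33469 promoter windows of the same length, 15.9% held it, a share not matched for G and C content. The Dsp, Jup and Dsg2 windows were rich in G and C (75.2%, 68.8% and 68.4%, with 29, 21 and 17 CpG pairs), against 51.6% and 3 CpG pairs for Dsg3 and a median of 51.2% and 5 over all windows. On both strands, GGGCGG was found 4 times for Dsp, 2 times for Dsg2 and 1 time for Jup (30.5% of all windows held it), and TGANTCA was found 1 time, for Cdh20 (6.34% of all windows). TATAAA and CTTTGA, held by 12.9% and 13.9% of all windows, were in none of the 6 windows. None of these matches is evidence of binding, and whether they bear on the levels of these genes was not tested.

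Cdh2 encodes N-cadherin, a type I classical cadherin. Its level was 32.2, 63.0, 95.8 and 35.3 CPM in S1 to S4 and 83.4, 75.5, 91.5 and 76.3 CPM in S5 to S8. The Sirt6-KD libraries lay close together, and 3 of the 4 Sirt6-Ctrl libraries were below them while S3 was above. The means were 56.6 ± 29.6 and 81.7 ± 7.42 CPM (SD, n = 4 per group), or a log2 fold change of 0.53 (95% interval -0.15 to 1.21, adjusted p = 0.237, edgeR's quasi-likelihood test). Without S3, Cdh2 was called higher, with a log2 fold change of 0.91 (adjusted p = 0.0158, edgeR's quasi-likelihood test, where the alternatives gave 0.0158 to 0.808).

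Cdh11 encodes OB-cadherin, a type II cadherin of mesenchymal cells. Its level was 22.3, 13.1, 35.9 and 37.6 CPM in S1 to S4 and 13.7, 17.7, 52.4 and 24.2 CPM in S5 to S8. S7 was above every other library, and S5 was near the lowest Sirt6-Ctrl library. The log2 fold change was -0.012 with a 95% interval from -0.98 to 0.96 (adjusted p = 0.989, edgeR's quasi-likelihood test), and it was positive under 11 of 19 alternatives.

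Cdh20 encodes another type II cadherin. It was at 10.7, 27.4, 5.27 and 8.75 CPM in S1 to S4 and at 6.69, 5.85, 3.81 and 3.97 CPM in S5 to S8. S2 alone was far above the rest, and S3 lay within the range of Sirt6-KD. The log2 fold change was -1.36 (standard error 0.48, 95% interval -2.42 to -0.31, adjusted p = 0.0648, edgeR's quasi-likelihood test). Without S2 it was -0.69 (adjusted p = 0.16), without S1 and S2 it was -0.45 (adjusted p = 0.403), and without S3 it was -1.62 and Cdh20 was called (adjusted p = 0.0185, all from edgeR's quasi-likelihood test). S2 was also the library with the largest spike-in share, and the part of that share in the result was not tested.

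Cdh13 encodes T-cadherin, which is held in the membrane by a lipid anchor and lacks the tail that binds catenins. Its libraries lay close together within each group, with 78.8, 72.6, 77.5 and 80.2 CPM in S1 to S4 and 53.8, 54.2, 59.0 and 51.0 CPM in S5 to S8. Each Sirt6-KD library was below each Sirt6-Ctrl library. The means were 77.3 ± 3.28 and 54.5 ± 3.33 CPM (SD, n = 4 per group), a 1.42-fold lower level in Sirt6-KD. Its log2 fold change of -0.50 (standard error 0.11, 95% interval -0.76 to -0.25) passed adjustment (adjusted p = 0.0143, edgeR's quasi-likelihood test) but not the fold change limit of 1.5, so Cdh13 was not called. Without S1 and S2 the log2 fold change was -0.52 (adjusted p = 0.022, edgeR's quasi-likelihood test).

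Ctnnb1, which encodes β-catenin, was at 190, 199, 223 and 270 CPM in S1 to S4 and at 219, 227, 232 and 248 CPM in S5 to S8. All Sirt6-KD libraries lay within the range of Sirt6-Ctrl. Its log2 fold change was 0.07 with a 95% interval from -0.23 to 0.37 (adjusted p = 0.749, edgeR's quasi-likelihood test), an interval that lies within 1.5-fold in both directions under TMM scaling.

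**Figure D2:**
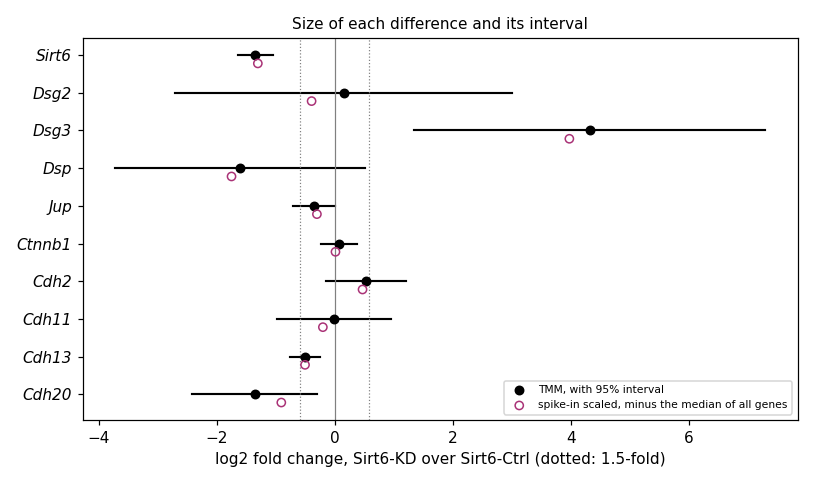
Knockdown effect, as log2 fold change (positive where Sirt6-KD is higher), for Sirt6 and the 9 genes (filled points, with 95% intervals from edgeR's quasi-likelihood test), where open points are the values after scaling to the spike-ins, minus the median of all genes, and dotted lines mark a 1.5-fold change. The intervals of Ctnnb1, Jup and Cdh13 are narrow, and those of Dsg2, Dsg3 and Dsp span several log2 units.

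When libraries were scaled by their spike-in counts in place of TMM, the median over all genes moved to a log2 fold change of 0.94, 0.181% of genes were called, and Sirt6 was no longer called (-0.36, or -1.31 relative to that median). On that scale Cdh13, Jup, Cdh11 and Cdh20 had positive values (0.44, 0.64, 0.74 and 0.035), which relative to the median of all genes were -0.51, -0.31, -0.20 and -0.91. Dsg3 was 3.97 and Cdh2 0.47 above that median, while Ctnnb1 differed from it by 0.0092.

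Ratios of reads within a library do not depend on how libraries are scaled. Plakoglobin and β-catenin compete for the same site on cadherin tails, and the ratio of Jup to Ctnnb1 reads was 0.426, 0.324, 0.276 and 0.242 in S1 to S4 and 0.284, 0.199, 0.196 and 0.242 in S5 to S8. The ranges overlapped, and the log2 difference of Sirt6-KD minus Sirt6-Ctrl was -0.45 (exact two-sided permutation test, p = 0.143, adjusted over both ratios 0.257). The ratio of Cdh2 to Cdh11 reads was 1.45, 4.79, 2.67 and 0.939 in S1 to S4 and 6.11, 4.26, 1.74 and 3.15 in S5 to S8. The log2 difference of 0.76 did not pass either (exact two-sided permutation test, p = 0.257, adjusted p = 0.257, where 4 libraries against 4 cannot go below 0.0286).

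The members were placed with other genes in 10 lists of cell adhesion genes. These were written from general knowledge with earlier results of these data known. The lists hold 147 gene names, not all of them names of different rat genes. Of these, 97 had a row in the table and 94 were tested, all 9 tested members among them. Of the 94, 22 (Dsg3 included) were called higher and 3 lower in Sirt6-KD, beside 8.02% and 10.7% of all genes. The counts of single lists below stand beside the same shares, and no list was tested as a set. Their log2 fold changes had a median of 0.39. Without S1 and S2, 14 were called higher, 12 of them among the 22, and without S1, S5, S6 or S7 alone 11, 11, 10 and 11 were called higher. In the same fits the number of all genes called higher went from 1063 to 810, 552, 491, 445 and 477. Scaled by spike-ins, none of the 94 was called, and Clstn1 turned positive.

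In the desmosome list, 4 of 10 tested genes were called higher (Dsg3, Pkp1, Ppl and Evpl) and 0 lower, with a median log2 fold change of 0.85. Pkp1 encodes plakophilin 1, a plaque protein that strengthens desmosomes in epidermis. It was at 113, 163, 277 and 107 CPM in S1 to S4 and at 502, 460, 394 and 402 CPM in S5 to S8, with no overlap. For Pkp1 the log2 fold change came to 1.41 (adjusted p = 0.00865, edgeR's quasi-likelihood test). Ppl and Evpl encode periplakin and envoplakin, relatives of desmoplakin found at desmosomes and in the cornified envelope. Ppl rose from 0.658 ± 0.533 to 6.06 ± 1.70 CPM and Evpl from 9.03 ± 5.58 to 25.5 ± 3.55 CPM (SD, n = 4 per group). The log2 fold change of Ppl was 3.20, and Evpl was 2.83-fold higher (adjusted p = 0.0178 and 0.0205, edgeR's quasi-likelihood test). The desmocollin genes Dsc2 and Dsc3, partners of the desmogleins, had log2 fold changes of 0.88 and 0.81 and were not called (adjusted p = 0.213 and 0.0961, edgeR's quasi-likelihood test). Without S1 and S2, 2 genes of the list were called, and without S6 alone 1 was. In those 2 fits 810 and 445 of all genes were called higher, against 1063 with all libraries.

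**Figure D3:**
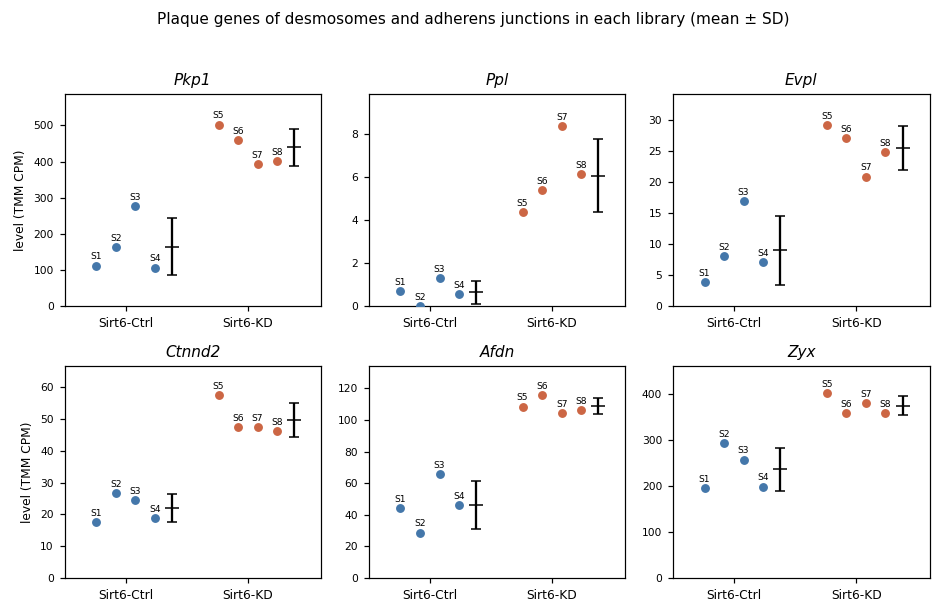
Level of 6 plaque genes called higher in Sirt6-KD, per library in TMM-normalized CPM on linear axes from 0, with points for libraries beside the mean and SD of 4 libraries. All Sirt6-KD libraries lie above all Sirt6-Ctrl libraries in every panel, and S3 is the highest or the second highest Sirt6-Ctrl library in each.

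Of 22 cadherin genes listed, 8 had a row, 7 were tested and 0 were called by edgeR, beside 18.7% of all genes. At an unadjusted p below 0.05 by the same test, Cdh3, Cdh13 and Cdh20 differed. Cdh3, which encodes P-cadherin, averaged 7.03 ± 4.13 CPM in S1 to S4 and 13.7 ± 2.61 CPM in S5 to S8 (SD, n = 4 each), with an adjusted p of 0.0883 in edgeR's quasi-likelihood test. In this list DESeq2 called Cdh3 higher and Cdh20 lower, limma-voom called Cdh3 higher, and without S4 Cdh3 was called higher by edgeR. Cdh1 and Cdh5, the cadherins of epithelia and of endothelium, had no row under these names.

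In the list of the catenins and the adherens junction plaque, which also holds the nectins, 9 of 19 tested genes were called higher and 0 lower. Over all genes these shares were 8.02% and 10.7%. Of the catenin genes tested (Ctnnb1, Jup, Ctnnd1, Ctnnd2, Arvcf, Ctnna1 and Ctnnal1), only Ctnnd2 was called. The median log2 fold change of the list was 0.67. The difference from the cadherin list was not tested. Ctnnd2, which encodes δ-catenin, a relative of p120-catenin, rose from 17.6 to 26.8 CPM in S1 to S4 to 46.1 to 57.6 CPM in S5 to S8, a log2 fold change of 1.18 (adjusted p = 0.00348, edgeR's quasi-likelihood test). Afdn, which encodes afadin, the link from nectins to actin, rose from a mean of 46.2 ± 15.3 CPM to 109 ± 4.92 CPM (SD, n = 4 each; adjusted p = 0.00572, edgeR's quasi-likelihood test). Zyx, Nectin3, Nectin2 and Actn1 had log2 fold changes of 0.67, 1.05, 0.80 and 0.86 (adjusted p from 0.015 to 0.0218, edgeR's quasi-likelihood test), and Ajuba, Actn4 and Vcl were called too, Vcl with its call lost under 11 of 20 alternatives. Ctnna1, which encodes α-catenin, was at 391 ± 38.1 and 526 ± 28.0 CPM (SD, n = 4 per group) and passed adjustment below the fold change limit (log2 fold change 0.43, adjusted p = 0.0328, edgeR's quasi-likelihood test). Without S1 and S2, 3 genes of this list were called higher. Without S1, S5, S6, S7 or S8 alone 4, 3, 3, 4 and 5 were. Over all genes, 1063 called higher became 810 without S1 and S2, and 552, 491, 445, 477 and 736 in those other fits.

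**Figure D4:**
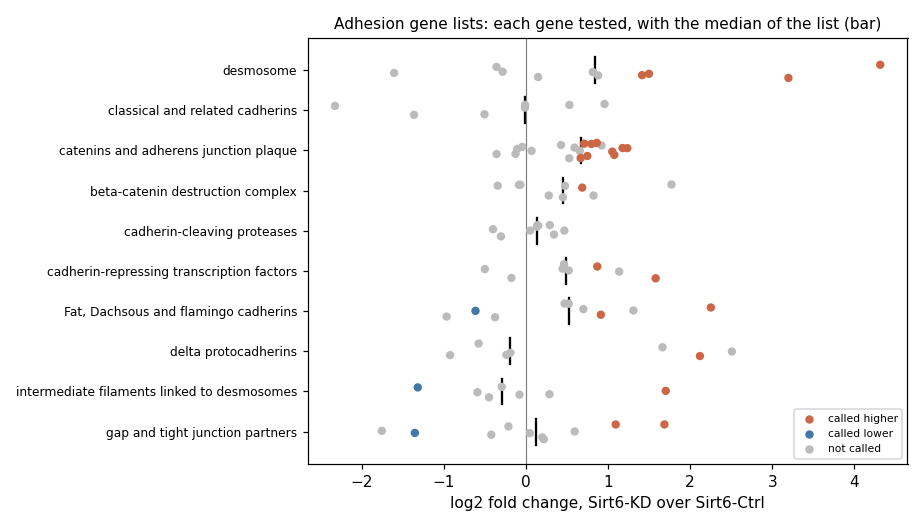
Log2 fold change of every tested gene in the 10 adhesion lists, coloured by its call, with a bar at the median of each list. Called higher were 4 of 10 tested genes in the desmosome list and 9 of 19 in that of the catenins and adherens junction plaque. In the cadherin list it was 0 of 7, beside 8.02% of all genes tested. Differences between the lists were not tested.

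Among transcription factors that repress cadherin genes, 2 of 8 tested were called higher and 0 lower. Snai1 rose from 54.8 ± 19.0 to 100.1 ± 6.18 CPM and Zeb2 from 21.3 ± 12.3 to 63.6 ± 7.74 CPM (SD, n = 4 per group). Their log2 fold changes were 0.87 and 1.58 (adjusted p = 0.0173 and 0.0136, edgeR's quasi-likelihood test). The call of Snai1 was lost under 7 of 20 alternatives, including without S1, S5, S6 or S7 alone, each of which left 1 called gene in the list, and without S1 and S2. That of Zeb2 was lost under 2, glmTreat and spike-in scaling. In the list of the β-catenin destruction complex, which marks β-catenin for degradation, Apc was called higher (log2 fold change 0.69, adjusted p = 0.0475, edgeR's quasi-likelihood test), 1 of 9 tested. S3 lay within the Sirt6-KD range of Apc, and its call was lost under 11 of 20 alternatives. Of 9 tested proteases that cleave cadherins, 0 were called by edgeR and 0 by DESeq2, and Ncstn alone had an unadjusted p below 0.05 (log2 fold change -0.30, adjusted p = 0.104, edgeR's quasi-likelihood test).

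The list of Fat, Dachsous and flamingo cadherins, which also holds Clstn1, Clstn2 and Clstn3, had 9 tested genes. Of these, Dchs1 and Fat3 were called higher (log2 fold changes 0.91 and 2.25). Clstn1, which is in none of the families named, was called lower (-0.61, and 0.37 with spike-in scaling). Dchs1 is the ligand of a Fat cadherin in planar cell polarity, and its adjusted p was 0.00634, beside 0.0259 for Fat3 and 0.0124 for Clstn1 (edgeR's quasi-likelihood test). Pcdh7 was the 1 delta protocadherin called of 7 tested, with a log2 fold change of 2.12 (adjusted p = 0.0151, edgeR's quasi-likelihood test). Of 7 tested intermediate filament and linker genes, Krt7 was called higher (1.70) and Krt8, which pairs with Krt18 in NP cells, lower (-1.32), as log2 fold changes with adjusted p = 0.00421 and 0.0441 from edgeR's quasi-likelihood test. The call of Krt8 was lost under 11 of 20 alternatives, among them limma-voom and leaving out S1, S5, S6, S7 or S8, and that of Clstn1 under 10. In the list of gap and tight junction partners, Tjp1 and Gjb2 were called higher (1.09 and 1.69) and Tjp3 lower (-1.35) of 10 tested, as log2 fold changes with adjusted p from 0.00217 to 0.0141 (edgeR's quasi-likelihood test). Tjp1 encodes the scaffold ZO-1 and Gjb2 the channel protein connexin 26.

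Most markers of epithelia had no row. Of 15 listed, 4 had a row (Krt10, Cldn4, Ovol1 and Sfn), while Krt5, Krt14, Epcam, Cdh1 and Grhl2 had none under these names. The summed level of the 4 was 8.82 to 20.5 CPM in S1 to S4 and 3.10 to 7.61 CPM in S5 to S8. Krt10, with the highest level of the 4, was called lower, and the other 3 were not called. Keratins of the intermediate filament list went both ways (log2 fold changes 1.70 for Krt7, 0.29 for Krt17 and -1.32 for Krt8). The sum of the 4 thus does not stand for epithelial genes as a whole. Between S1 to S4 and S5 to S8, mean CPM went from 2.88 to 1.41 for Sfn and from 0.987 to 0.85 for Cldn4. For Ovol1 it went from 0.672 to 1.01. Their part in the values of the desmosome list was not tested. Of 8 endothelial markers Tek alone had a row, at 0 to 0.509 CPM in S1 to S4 and 0.179 to 0.592 CPM in S5 to S8. The 3 of 9 immune markers with a row summed to 11.9 to 29.7 and 15.0 to 23.8 CPM, and those of smooth muscle (6 of 7) to 431 to 2797 and 968 to 2315 CPM. Fibroblast markers, all 9 with a row, summed to 15145 to 28364 CPM in S1 to S4 and 9228 to 19242 CPM in S5 to S8, with Col3a1 and Dcn called lower, and their part in the results was not tested.

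The genes whose log2 CPM followed Dsg3 most closely over the 8 libraries were Gprc5a, Pld4 and Foxn1 (Pearson r = 0.988, 0.988 and 0.987), with log2 fold changes of 0.96, 3.99 and 3.49. Those closest to Cdh13 were Utp11, Bap1 and Canx (r = 0.992, 0.987 and 0.985), with log2 fold changes of -0.65, -0.76 and -0.27. These values only describe likeness over 8 libraries that fall into the groups compared.

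**Figure D5:**
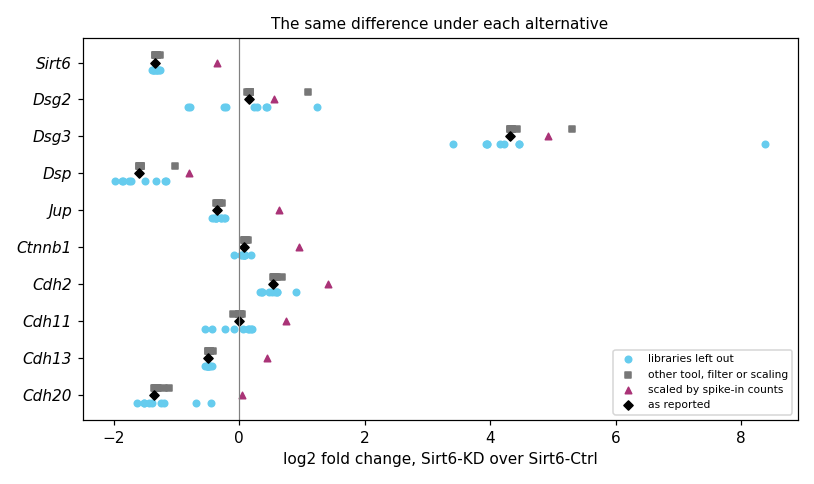
Log2 fold change of Sirt6 and the 9 genes under every alternative: libraries left out, other tools, filters or scalings, and scaling by spike-ins. Cdh13 and Jup stay within a narrow range except under spike-in scaling, Dsg3 ranges from 3.40 to 8.38, and the values of Dsg2 and Cdh11 lie on both sides of 0.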

How the data were processed

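RNA of primary rat NP cells was sequenced in 4 Sirt6-Ctrl and 4 Sirt6-KD libraries. Per the labels, the submitters' processing notes name Trimmomatic 0.36, STAR 2.5.2b, featureCounts of Subread 1.5.2, DESeq2 and the build Rnor_6.0. The deposited counts are whole reads for each Ensembl gene and spike-in, not normalized. Their second deposited table holds each library's normalized signal (counts divided by 1 size factor per library) and the log2 fold change and p-values of their own comparison. It was used here only for gene names and its count filter. The strand setting is not given in the sources used here, so reads of antisense genes may be included.

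From the counts, 13313 rows (63 of them spike-ins) passed filterByExpr of edgeR 4.0.16 in R 4.3.3. They were normalized by TMM and tested with glmQLFit and glmQLFTest, unpaired, adjusting p over every row by Benjamini-Hochberg. Calls needed more than a 1.5-fold change with adjusted p under 0.05, limits that the study also used. Log2 CPM used a prior count of 2. The methods give 4 independent experiments, and p-values measure the spread between these libraries. Alternatives were DESeq2 1.42.0, limma-voom (limma 3.58.1), other scalings and filters, glmTreat and libraries left out. The main edgeR fit, limma-voom and DESeq2 were checked on simulated counts, and the other tests were not.

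The members and the gene lists were chosen with earlier results of these data known. Named genes are the members, Sirt6, called genes of the lists (at most 6 per list, by p) and, for the member with the smallest p in each direction, the 3 genes most like it. Other listed genes named, such as Ctnna1, Dsc2 and Vcl, were chosen after their values were seen. Promoter windows and gene order came from RefSeq on GRCr8. ATAC-seq data were not analysed here.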

Additional observations from a re-analysis of the deposited data

Results flagged for a closer look

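Of 20 groups of 4 libraries examined (Sirt6 and the 9 members in each group), 1 had an extreme library by Dixon's test (gap to its neighbour over the whole range), and chance alone would mark about 1 in 20. This was S4 for Dsg3 in Sirt6-Ctrl, the highest, with a gap of 1 times the range, since the other 3 libraries had 0 reads. Without S4, all remaining Sirt6-Ctrl libraries are at 0 reads for Dsg3. The mean Sirt6-KD level of Dsg3 was 13.6 times a floor of 3 counts per library. This ratio covers counting error only, not the spread between libraries, and S4 itself was above that floor at 0.218 CPM. With S4 kept, the interval of the log2 fold change ran from 1.34 to 7.29. Without S4, the only Sirt6-Ctrl library with Dsg3 reads, the adjusted p of Dsg3 was 0.0124 from edgeR's quasi-likelihood test (0.00376 to 0.143 over all alternatives). With any other single library left out it was 0.0583 to 0.109 by the same test, and Dsg3 was not called. Dsg3 passed the filter only through Sirt6-KD, so no conclusion is drawn from the fit without S4.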

How the results depend on the processing

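The number of members called higher was 1 (Dsg3) and became 0 with library totals in place of TMM, with spike-in scaling, with no filter on low counts, with the authors' count filter, with glmTreat, and without S1 and S2. With each library left out it was 0 to 1, and without S3 the gene called was Cdh2, not Dsg3. The number called lower was 0, and 1 with DESeq2 (Cdh20) and with no fold change limit (Cdh13), with 0 to 1 when libraries were left out. Of the 94 listed adhesion genes, 22 called higher became 0 with spike-in scaling, 3 with glmTreat and 14 without S1 and S2, and 10 to 28 with each library left out. Over all genes, 1063 called higher became 20, 92 and 810 in the same order, and 445 to 1699 with each library left out. The 3 listed genes called lower became 5 with DESeq2, 1 with library totals, 0 with spike-in scaling, 1 with no filter and 0 with glmTreat. With each library left out they were 1 to 4. Over all genes, 1416 called lower became 4 with spike-in scaling and 185 with glmTreat.

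Signs turned with spike-in scaling for Jup (0.64), Cdh11 (0.74), Cdh13 (0.44) and Cdh20 (0.035). Cdh11 also turned positive with upper quartile scaling (0.0073), library totals (0.035), no spike-in rows (0.0057), no filter (0.014) and the authors' filter (0.014), and without S3 (0.15), S4 (0.18), S5 (0.21), S6 (0.14) and S8 (0.065). Dsg2 turned negative without S1 (-0.21), S2 (-0.25), S5 (-0.82) and both S1 and S2 (-0.79), and Ctnnb1 without S1 and S2 (-0.078). With libraries left out, Dsg2 ranged from -0.82 to 1.23 and Cdh11 from -0.56 to 0.21. The cause was not tested. Leaving out 1 library moved the log2 ratio difference of Jup to Ctnnb1 from -0.57 to -0.29 and that of Cdh2 to Cdh11 from 0.39 to 1.17, where 3 libraries against 4 cannot give a p below 0.0571. Dsp kept its sign and stayed uncalled under all 19 alternatives. Dsg2, Dsg3 and Dsp had under 10 reads in some libraries, and Dsg2 and Dsp also varied widely within Sirt6-Ctrl, which limits their values. Over all genes, 18.7% were called, against 8.43% to 26.6% with a library left out. No paired analysis was possible because the labels give no number shared between the groups.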
